A study of Mus musculus with 7 samples.

Results

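The proteasome genes of the mouse joint were examined in RNA-Seq data from WT and *Trpc1*-/- mice after destabilization of the medial meniscus (DMM), the surgery that induces OA. Members were taken by gene symbol, as each row of the deposited table whose symbol starts with Psma, Psmb, Psmc, Psmd, Psme, Psmf, or Psmg followed by a number, with or without a letter after it. This gave 49 of the 55401 genes in the table, all of them protein coding in GENCODE M21 (GRCm38) and spread over the rings, caps, activators, inhibitor, and assembly factors of the particle. Of these, 48 passed the filter on low counts, which left 16429 genes in all. The exception was Psmb11, the thymus-restricted beta subunit, with 1 to 3 counts in each sample, at or under the level of 3 counts taken as detectable.

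The study asked how the loss of TRPC1, a calcium-permeable channel, alters the early response of the joint to DMM. All mice were C57BL/6J males that were 10 weeks old at DMM of the right knee, and tissue was taken 2 weeks later, so that both groups carried the injury and no uninjured knee was among these samples. The 3 *Trpc1*-/- samples came from germline Trpc1tm1Lbi mice, which lack an exon within the transmembrane region, with an early stop codon as the result, in every cell type and not in chondrocytes alone, and the 4 WT samples came from controls of the same colony. Each sample pooled the RNA of 2 to 3 mice. The group sizes are those of the sample labels, whereas the Methods give the 4 samples to the knockout. The labels name articular cartilage, and the Methods add subchondral bone.

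The proteasome is the protease that degrades most short-lived and damaged proteins of a cell, chiefly those tagged with ubiquitin. Its 20S core is a barrel of alpha and beta rings that holds the catalytic sites, and the 19S cap recognizes, unfolds, and feeds in the substrate. When exposed to interferon, cells exchange the catalytic subunits for those of the immunoproteasome, which shape the peptides shown on MHC class I and are abundant in blood cells. In chondrocytes, as in other cells, degradation of the inhibitor of NF-κB by the proteasome is a step of the response to inflammatory cytokines.

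The libraries held 52142451 to 118254070 counts on genes, with the lowest total in WT replicate 1. This library stood apart from the other WT samples in several measures. The mitochondrial ribosomal RNA mt-Rnr2 took 19.6% of its counts and 12.3% to 15.4% of those of the others. The summed level of 3 skeletal muscle markers was 787 CPM in WT replicate 1, 42.8 to 150 CPM in WT replicates 2 to 4, and 272 to 670 CPM in the *Trpc1*-/- samples, where CPM is the count scaled to a common library size after TMM normalization, the unit used throughout. That of 7 neutrophil markers was 5210 CPM in WT replicate 1 and 12200 to 16600 CPM in the other 6 samples. Chondrocyte markers such as Col2a1 and Acan were present in each sample, with a summed level of 4500 to 5240 CPM in WT and 2670 to 4890 CPM in *Trpc1*-/- samples for the 6 genes. The tissue thus held RNA of marrow and muscle beside that of cartilage, and none of the 51 markers was at 0 in any sample. At an unadjusted p under 0.05 in edgeR, 8 of 9 erythroid, 2 of 5 T cell, and 1 of 5 macrophage markers were higher in *Trpc1*-/- samples, and 2 of 6 chondrocyte markers were lower. Over all genes, 4.51% were higher and 5.49% lower. The lists for neutrophils, B cells, dendritic cells, osteoblasts, endothelium, and skeletal muscle had 0 in either direction with all samples. Without WT replicate 1, all 3 muscle markers and 2 of 4 B cell markers were higher in *Trpc1*-/- samples at that level. The muscle markers had logFC of 2.08 to 2.15 (0.69 to 0.80 with all samples). Of the chondrocyte and endothelial markers, 3 of 6 and 1 of 4 were lower at that level without this library. In that fit 8.48% of all genes were higher and 8.38% lower. Trpc1 itself was at 4.62 CPM (SD, 0.229) over the 4 WT samples and 3.39 CPM (SD, 0.379) over the 3 *Trpc1*-/- samples, with no overlap between the groups. Its count is a total over the gene, so the deleted exon was not examined on its own. In whole tissue, fewer cells of a type and less RNA per cell cannot be told apart.

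No proteasome gene passed the adjusted threshold of edgeR between the genotypes. The activator subunit Psme3 and the inhibitor Psmf1 had the smallest p, both with higher levels in *Trpc1*-/- samples, and most other members were low in 1 WT library. The 48 members summed to 1630, 2250, 2380, and 2280 CPM in WT replicates 1 to 4 and to 2560, 2270, and 2420 CPM in *Trpc1*-/- replicates 1 to 3. WT replicate 1 was the low sample, and the other 3 WT samples overlapped the *Trpc1*-/- range. With edgeR's quasi-likelihood test and adjustment over all genes, 0 of the 48 members passed an adjusted p of 0.05, nor did any of the 16429 genes (0%). At an unadjusted p under 0.05, 2 members (4.17%), Psme3 and Psmf1, were higher in *Trpc1*-/- samples, against 741 genes in all (4.51%), and 0 members were lower, against 902 genes in all (5.49%). DESeq2, the method of the study, called 294 genes (1.79%) and 1 member (2.08%), Psme3. In edgeR and DESeq2 the counts of members were thus near or under the share for all genes. With limma-voom 0 members were called, and its share of all genes is not given here.

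The groups did not overlap, with each *Trpc1*-/- sample above each WT sample, in 5 members (10.4%), Psma3, Psma6, Psme3, Psmf1, and Psmg2, against 7.15% of all genes. In the opposite direction there were 0 members, against 6.42% of all genes. The median log2 fold change (logFC, *Trpc1*-/- minus WT) of the 48 members was 0.20, against -0.0090 for all genes. Of the 48, 46 lay above 0, against 7904 of all 16429 genes, and the members share the same libraries. Without WT replicate 1 the median was 0.063, against -0.0020 for all genes. There 39 members lay above 0 and 9 below, against 8146 and 8283 of all genes. In that fit edgeR called 49 genes (0.298%) and 0 members at an adjusted p of 0.05. At an unadjusted p under 0.05 it had 3 members higher (6.25%), against 8.48% of all genes, and 0 lower, against 8.38%. DESeq2 without this library, an alternative chosen after the data had been seen, called 5.42% of all genes and again Psme3 alone among the members.

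Mouse numbers in the sample labels form a series in the 1300s, which holds WT replicates 1 and 2 and all *Trpc1*-/- samples, and a series in the 1700s, which holds WT replicates 3 and 4 only. Within the 1300s, where WT replicate 1 is 1 of the pair of WT samples, the median logFC of the members was 0.36 and 1 member (2.08%), Psme3, was higher at an unadjusted p under 0.05, against 4.79% of all genes, whose median logFC was -0.0090. With the series as a covariate, 8 members (16.7%), with Psme3 but not Psmf1 among them, were higher at that level, against 7.30% of all genes, and 0 members passed the adjusted threshold. The 1700s hold no *Trpc1*-/- sample, so this fit also drew the genotype difference from the 1300s, with WT replicate 1 in the WT pair. Its median logFC of the members was 0.36 too, and it is not a separate check.

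**Figure D1:**
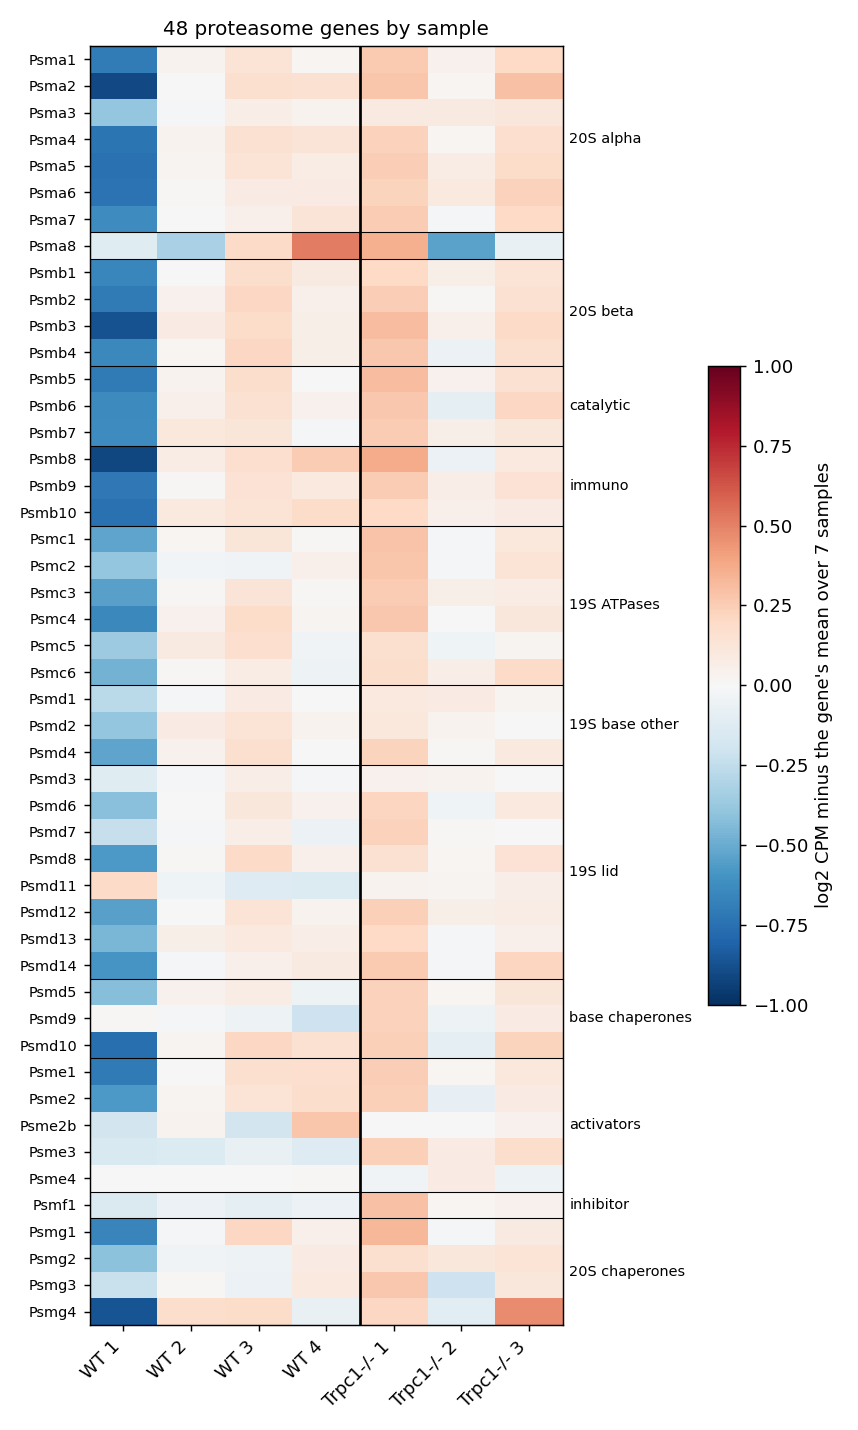
Level of the 48 tested proteasome genes in the 7 samples, as log2 CPM minus each gene's own mean, on a color scale from -1 (blue) to 1 (red), with genes grouped by role. WT replicate 1 is the lowest sample for 44 of the 48 genes, against 6237 of all 16429 genes tested, and the exceptions are Psma8, Psmd9, Psmd11, and Psme4.

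The low level in WT replicate 1 was not equal across the particle. Relative to the mean of WT replicates 2 to 4, this library had a median of 65.1% over the 48 members, with a range from 47.4% for Psmb8 to 123% for Psmd11, while the median over all tested genes was 99.5%. The 14 genes of the 20S core were at a median of 58.7%, the 3 immunoproteasome genes at 54.2%, and the 17 genes of the 19S cap at 71.6%. The 5 activator genes were at a median of 84.6% and Psmf1 was at 95.2%. By median, the core was thus further from the other WT samples than the cap. The activators were split. Psme1 and Psme2, at 56.4% and 62.0%, were near the core median. Psme2b was at 84.6%, Psme3 at 97.4%, and Psme4 at 98.9%. Among the *Trpc1*-/- samples, replicate 1 was the highest for 40 of the 48 members and replicate 2 the lowest for 42, so that members moved together within the group too. Over the 16429 genes tested, these orders held for 6015 and 6104.

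Exon length moved with this pattern. Over all genes, WT replicate 1 had a median of 81.3% of the other WT samples in the shortest of 4 equal classes of length, up to 2.30 kb of exon, and of 92.3%, 102%, and 115% in the next classes. The members in these classes were at 60.0% (18 genes), 65.1% (20 genes), 74.5% (4 genes), and 97.0% (6 genes), below the median of all genes in each. Across the 48 members, log2 exon length and the log2 ratio had a Pearson correlation of 0.52 and a Spearman correlation of 0.46, and across 16415 genes these were 0.24 and 0.31. Each point shares the same 4 libraries, and genes are not independent replicates. The part of length, depth, muscle RNA, and mitochondrial RNA in the low level of the members was not tested.

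**Figure D2:**
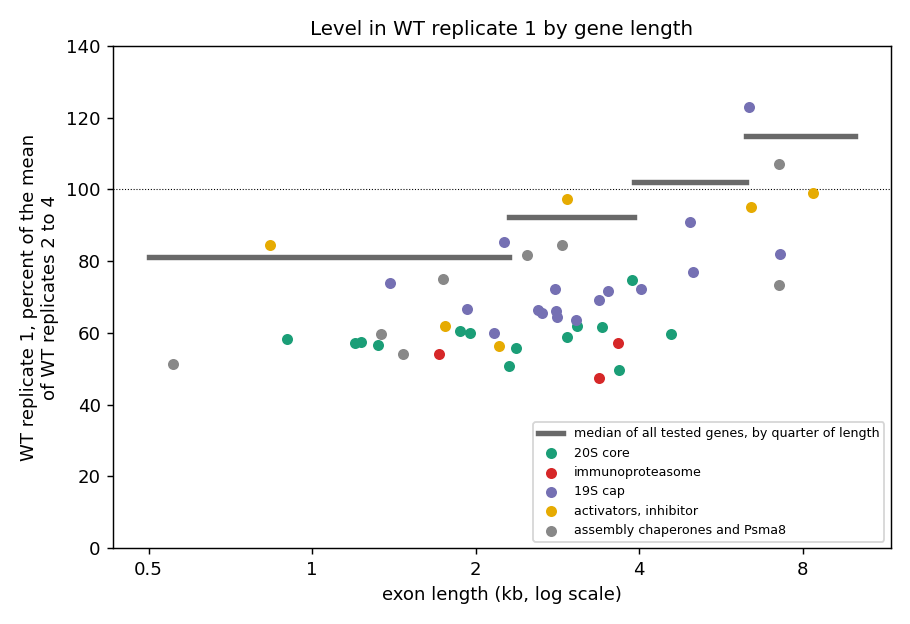
Level in WT replicate 1 as a percent of the mean of WT replicates 2 to 4 (vertical axis) against exon length in kb on a log scale, for the 48 tested members colored by role. Grey bars give the median of all tested genes in each of 4 equal classes of length, drawn within the axis range; the 20S core genes lie between 49.7% and 74.8%, below the bars of 81.3% to 102% at their lengths.

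In the 20S core, the alpha subunits build the outer rings that gate entry to the chamber. Per kb of exon, the WT level of Psma1 to Psma7 ran from 16.7 CPM per kb for Psma2 to 36.9 CPM per kb for Psma6. The core summed to 448, 729, 789, and 752 CPM in WT replicates 1 to 4 and to 845, 732, and 812 CPM in *Trpc1*-/- replicates 1 to 3. WT replicate 1 lay below every other sample, and the remaining groups overlapped. The logFC of the 7 alpha genes lay between 0.16 and 0.29, and without WT replicate 1 between 0.033 and 0.12, with adjusted p in edgeR of 0.603 to 0.715 in the fit of all samples. Psma6 was at 29.3, 49.2, 51.8, and 51.8 CPM in WT and 57.1, 52.2, and 57.3 CPM in *Trpc1*-/- samples. The groups did not overlap, though the lowest *Trpc1*-/- sample was close to the highest WT samples. Psma3 had the same order of groups, at 53.7 to 73.8 CPM in WT and 74.9 to 76.3 CPM in *Trpc1*-/- samples.

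Psma8, the alpha subunit of testis, was the lowest of the tested members at 0.524 CPM per kb in WT. It had 53 to 191 counts and the largest SE of the tested members, 0.289. Its logFC of -0.14 had an edgeR adjusted p of 0.869, and the direction turned in both fits of the mouse number series (0.189 and 0.188). The structural beta genes Psmb1 to Psmb4, which complete the inner rings without an active site, had logFC of 0.18 to 0.27 with all samples and 0.031 to 0.077 without WT replicate 1.

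The catalytic subunits carry the active sites. Psmb5, of the chymotrypsin-like site, was at 14.2, 23.7, 26.1, and 23.1 CPM in WT and 28.6, 23.8, and 25.7 CPM in *Trpc1*-/- samples. Apart from the low WT replicate 1, the groups overlapped. Psmb6, of the caspase-like site, was at 26.6, 42.9, 46.1, and 42.7 CPM in WT and 50.0, 38.7, and 47.7 CPM in *Trpc1*-/- samples, and Psmb7, of the trypsin-like site, at 31.2, 51.9, 52.4, and 47.7 CPM and 57.5, 50.2, and 52.2 CPM. Their logFC in edgeR were 0.26 (95% CI, -0.19 to 0.70), 0.20 (-0.24 to 0.64), and 0.22 (-0.19 to 0.62), with adjusted p of 0.638, 0.704, and 0.658. Without WT replicate 1 the values were 0.098, 0.048, and 0.070, with adjusted p of 0.576, 0.835, and 0.651.

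The immunoproteasome genes were expressed in each sample, and no difference between the genotypes was detected. Psmb8, which replaces Psmb5, was at 21.3, 42.2, 45.1, and 47.7 CPM in WT and 51.7, 38.5, and 42.9 CPM in *Trpc1*-/- samples. Psmb9, which replaces Psmb6, was at 11.7, 19.4, 21.3, and 20.6 CPM in WT and 22.9, 20.1, and 21.2 CPM in *Trpc1*-/- samples. Psmb10, which replaces Psmb7, was at 11.4, 20.4, 21.0, and 21.7 CPM in WT and 21.9, 19.8, and 20.2 CPM in *Trpc1*-/- samples. In each of the 3 genes the *Trpc1*-/- samples lay among or next to WT replicates 2 to 4. The edgeR logFC were 0.18 (95% CI, -0.42 to 0.78), 0.23 (-0.22 to 0.68), and 0.15 (-0.34 to 0.63), with adjusted p of 0.805, 0.673, and 0.804. Without WT replicate 1 these became -0.022 (-0.27 to 0.23), 0.067 (-0.092 to 0.23), and -0.028 (-0.17 to 0.11), so that the direction of Psmb8 and Psmb10 turned.

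Psmb8 and Psmb9 lie 9.96 kb apart in the MHC region of chromosome 17, at chr17:34197721-34201454 on the plus strand and chr17:34181987-34187764 on the minus strand (GRCm38), among the genes of peptide loading. The balance of immunoproteasome to constitutive subunits was compared as a ratio of levels per kb of exon. Psmb8 was at 0.471 ± 0.0614 of Psmb5 in the 4 WT samples (mean ± SD) and at 0.451 ± 0.0264 in the 3 *Trpc1*-/- samples. Psmb9 was at 0.235 ± 0.00922 of Psmb6 in WT and 0.243 ± 0.0202 in *Trpc1*-/- samples. Psmb10 was at 0.810 ± 0.0755 of Psmb7 in WT and 0.778 ± 0.0140 in *Trpc1*-/- samples. The groups overlapped in all 3 ratios, with two-sided exact permutation p of 0.743, 0.571, and 0.686 and an adjusted value of 0.857 for each over the 6 ratios of members compared. The ratios of WT replicate 1, at 0.400, 0.224, and 0.733, were the lowest of the 7 samples. The neutrophil markers were lowest in that library too, as given above, and their part in the ratios was not tested.

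**Figure D3:**
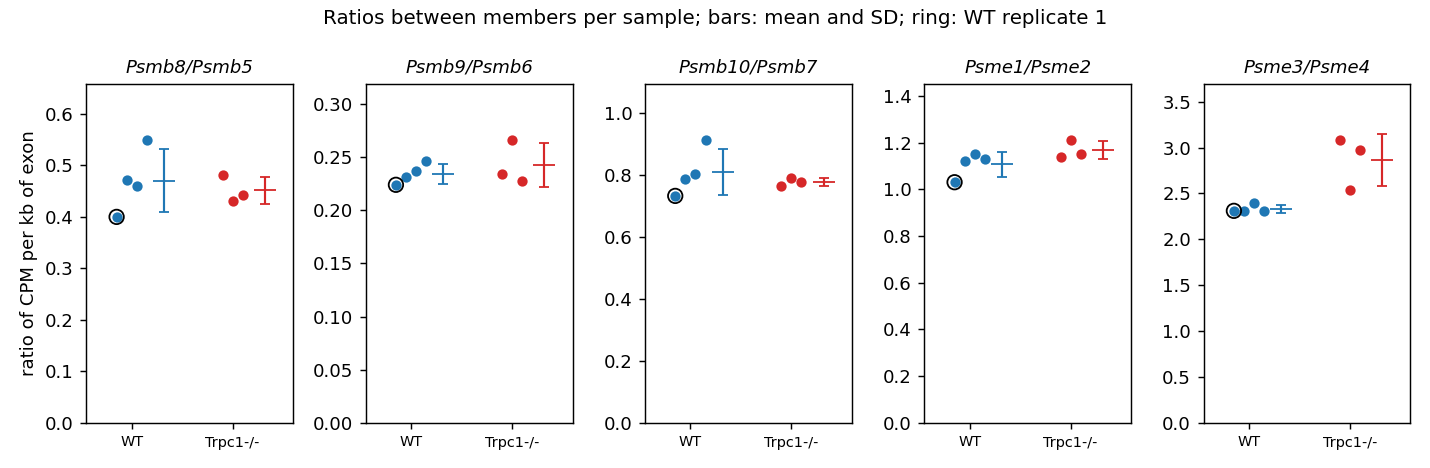
Ratio of CPM per kb of exon between pairs of members in each sample (points; the ring marks WT replicate 1), with mean and SD beside them. WT and *Trpc1*-/- samples overlap in the 3 ratios of immunoproteasome to constitutive subunit and in Psme1 to Psme2, whereas Psme3 to Psme4 is 2.31 to 2.40 in WT and 2.54 to 3.08 in *Trpc1*-/- samples.

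The 19S cap summed to 701, 941, 999, and 937 CPM in WT and 1060, 945, and 986 CPM in *Trpc1*-/- samples, and 2 of the 3 *Trpc1*-/- samples lay within the range of WT replicates 2 to 4. The 6 ATPases of the base, Psmc1 to Psmc6, which unfold the substrate, had logFC of 0.070 to 0.24 with all samples and -0.029 to 0.14 without WT replicate 1. The other base genes are the scaffolds Psmd1 and Psmd2 and the ubiquitin receptor Psmd4, with logFC of 0.067 to 0.17. The 8 lid genes, among them the deubiquitinase Psmd14, lay between 0.046 and 0.25, with Psmd3 the lowest and Psmd14 the highest. Adjusted p in edgeR was 0.540 or more for each of these 17 genes.

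Psmd11, a lid scaffold that helps to hold cap and core together, ran against the rest of the cap and was picked out after its values had been seen. It was at 46.9, 39.8, 37.6, and 37.3 CPM in WT and 42.0, 41.8, and 43.0 CPM in *Trpc1*-/- samples. WT replicate 1 was the highest of the 7 samples, and the other 3 WT samples lay below all *Trpc1*-/- samples. Its edgeR logFC was 0.065 with an adjusted p of 0.803, and without WT replicate 1 it was 0.14, with an unadjusted p of 0.0290 and an adjusted p of 0.247. With the series as a covariate and within the 1300s the direction turned, with a logFC of -0.037 in both.

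The chaperones that assemble the particle were among the lower members. Psmd5, Psmd9, and Psmd10, which build the base, were at 2.90 to 7.65 CPM per kb in WT, and Psmg1 to Psmg4, which assemble the alpha ring, at 2.40 to 7.21 CPM per kb. Psmg2 was at 8.96, 11.6, 11.5, and 12.6 CPM in WT and 13.3, 12.9, and 13.1 CPM in *Trpc1*-/- samples. Each *Trpc1*-/- sample was above each WT sample, by a small margin over WT replicate 4, with an edgeR logFC of 0.23 and an adjusted p of 0.537.

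The activators dock on the core in place of the cap. Psme1 and Psme2 form the interferon-induced ring PA28 alpha-beta. Psme1 was at 30.2, 49.6, 55.3, and 55.5 CPM in WT and 58.6, 50.1, and 53.2 CPM in *Trpc1*-/- samples, and Psme2 at 23.4, 35.5, 38.3, and 39.4 CPM and 41.1, 33.0, and 36.9 CPM. Both followed the pattern of the immunoproteasome, with WT replicate 1 low and the rest overlapping. The edgeR logFC was 0.18 for Psme1 and 0.11 for Psme2, with adjusted p of 0.749 and 0.823, and without WT replicate 1 it was 0.011 and -0.029. Psme2 shares near-identical sequence with Psme2b on chromosome 11, so the split of counts between them, and the 4.68 to 6.44 CPM assigned to Psme2b, is uncertain.

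Psme3 encodes PA28 gamma, the activator of the nucleus, which promotes degradation of certain proteins without ubiquitin. It had the highest level per kb of all members, at 39.1 CPM per kb in WT. It was at 113, 114, 119, and 115 CPM in WT and 148, 133, and 142 CPM in *Trpc1*-/- samples. WT replicate 1 did not stand apart here, at 97.4% of the other WT samples, and the lowest *Trpc1*-/- sample was above the highest WT sample. The edgeR logFC was 0.29 (SE, 0.072; 95% CI, 0.12 to 0.46), or 1.22-fold, with an unadjusted p of 0.00427 and an adjusted p of 0.395. The DESeq2 adjusted p was 0.00136. Without WT replicate 1 the logFC was 0.28, with an adjusted p of 0.115 in edgeR and 0.00146 in DESeq2. Within the 1300s series it was 0.31 with an unadjusted p of 0.0304 in edgeR. The call thus held in DESeq2 and not in edgeR, limma-voom, or any other setting of edgeR.

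Psme4, which forms the activator PA200, gave a flat counterpart at 140, 141, 140, and 142 CPM in WT and 137, 149, and 136 CPM in *Trpc1*-/- samples. Its edgeR logFC was -0.0027 (95% CI, -0.17 to 0.17), with an adjusted p of 0.991. The ratio of Psme3 to Psme4 per kb was 2.31, 2.31, 2.40, and 2.31 in WT and 3.08, 2.54, and 2.97 in *Trpc1*-/- samples. Each *Trpc1*-/- ratio lay above each WT ratio, with a two-sided exact permutation p of 0.0571, the smallest that 4 against 3 samples allow, and an adjusted value of 0.343 over the 6 ratios. The ratios of Psme1 to Psme2 (1.03 to 1.15 in WT and 1.14 to 1.21 in *Trpc1*-/- samples) and of Psme3 to Psme1 (1.56 to 2.81 and 1.89 to 2.00) overlapped, with exact permutation p of 0.171 and 0.857.

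Psmf1 encodes PI31, which inhibits the core in vitro and takes part in its transport. It was at 38.2, 40.4, 39.5, and 40.4 CPM in WT and 51.7, 42.6, and 43.4 CPM in *Trpc1*-/- samples. The groups did not overlap, and *Trpc1*-/- replicate 1 lay apart from the other samples. The edgeR logFC was 0.21 (SE, 0.083; 95% CI, 0.019 to 0.40), with an unadjusted p of 0.0353 and an adjusted p of 0.477, and the DESeq2 adjusted p was 0.310. Without *Trpc1*-/- replicate 1 it was 0.12 with an unadjusted p of 0.139 in edgeR. Psmf1 also missed an unadjusted p of 0.05 in edgeR without WT replicate 2, 3, or 4 (0.0635, 0.0684, and 0.0566) and with no filter on low counts (0.0507). The same held with the series as a covariate (0.0747), within the 1300s (0.110), and with the replicate block, which left out WT replicate 4 (0.124).

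Erythroid markers, like Psme3 and Psmf1, were higher in the *Trpc1*-/- group. Their sum was low in WT replicate 1, where Psme3 and Psmf1 were at 97.4% and 95.2% of the other WT samples. The 9 erythroid genes summed to 12300 CPM in WT replicate 1, to 19000 to 23300 CPM in WT replicates 2 to 4, and to 26700 to 36700 CPM in *Trpc1*-/- samples. All 9 had a logFC above 0, 7 did not overlap between the groups, and 4 were called by DESeq2. Over all genes, 7.15% were higher without overlap, and DESeq2 called 1.79% in either direction. The part of erythroid RNA in the levels of Psme3 and Psmf1 was not tested.

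**Figure D4:**
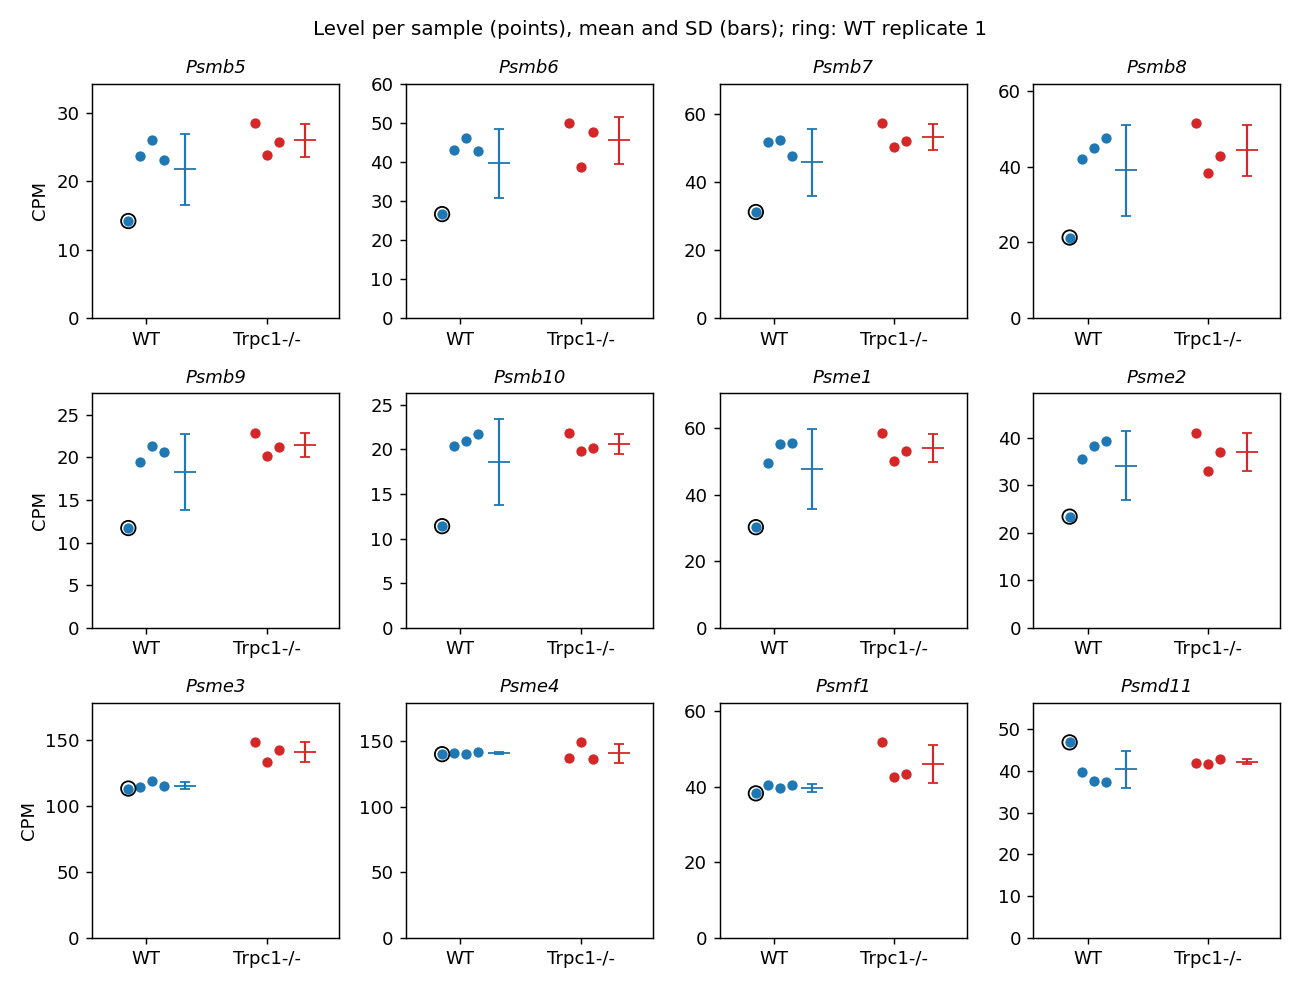
CPM per sample (points) for the catalytic subunits, activators, Psmf1, and Psmd11, with the mean and SD of each genotype beside them and a ring around WT replicate 1. WT replicate 1 is the lowest point for the catalytic subunits, Psme1, and Psme2, but sits with the other WT samples for Psme3, Psme4, and Psmf1.

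**Figure D5:**
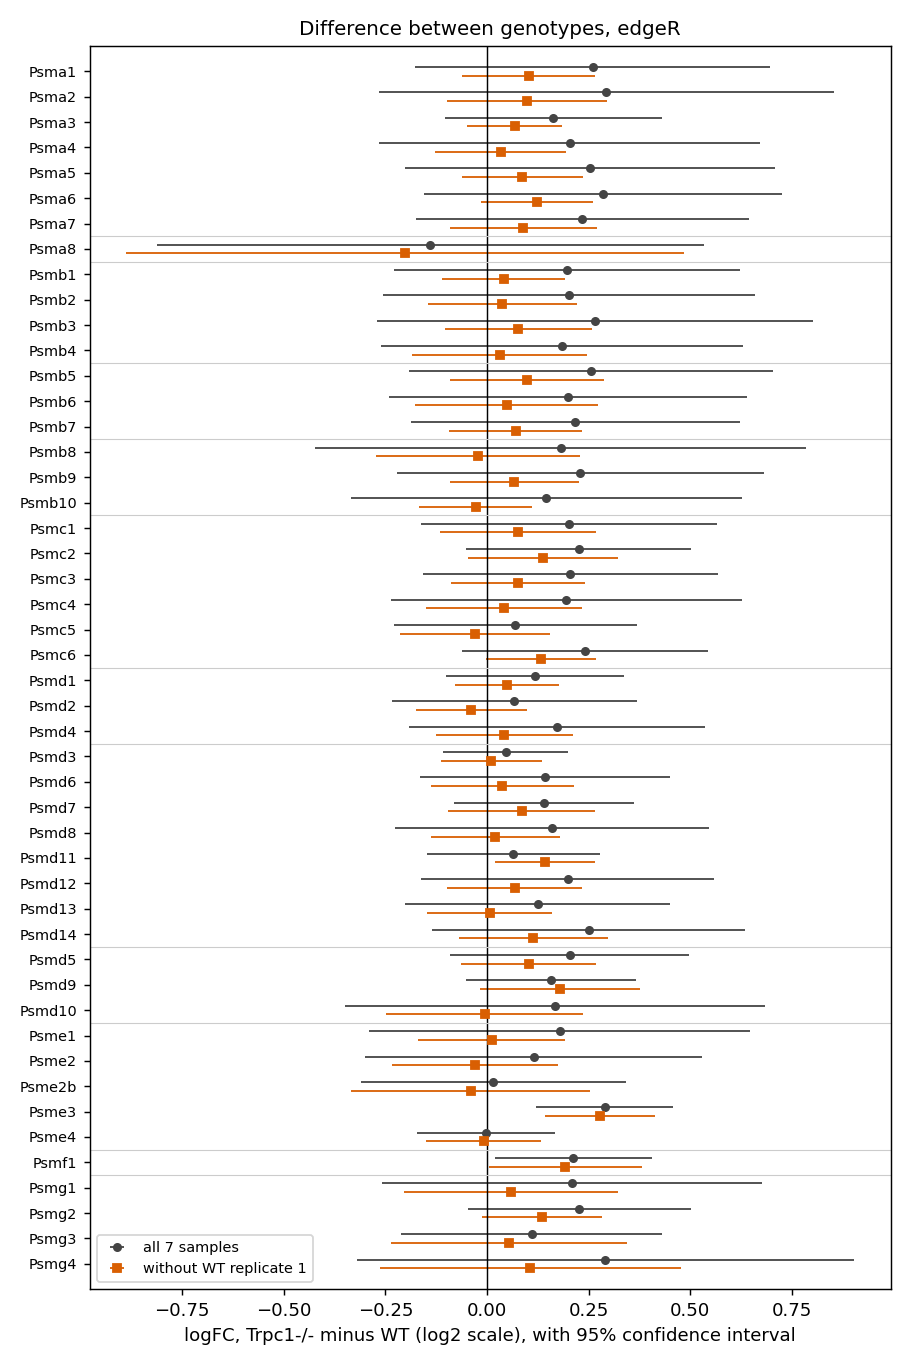
edgeR logFC (*Trpc1*-/- minus WT) of each tested member with its 95% confidence interval, from all 7 samples (circles) and without WT replicate 1 (squares). The median of the members is 0.20 with all samples and 0.063 without that library, and in both fits the intervals of Psme3 and Psmf1 lie above 0.

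The sequences upstream of 3 members are shown because Psme3 and Psmf1 were the members with the smallest p and Psmb5, like Psmb6, is a core catalytic gene with a match to the element bound by the proteasome regulators Nfe2l1 and Nfe2l2. They are from RefSeq (GRCm38.p6), 5′ to 3′ on the strand of the gene, from chr11:101315963-101316212 (plus) for Psme3, chr2:151741311-151741560 (minus) for Psmf1, and chr14:54618023-54618245 (minus) for Psmb5. The Psmf1 window lies upstream of the RefSeq start and inside the longer GENCODE gene, and the Psmb5 window leaves out bases annotated as exon. Capitals mark a match to the ETS-type motif CCGGAAG in Psme3, whose first base is 107 bases upstream of the start, and to TGACNNNGC, the core of the antioxidant response element, in Psmb5, 47 bases upstream.
Psme3: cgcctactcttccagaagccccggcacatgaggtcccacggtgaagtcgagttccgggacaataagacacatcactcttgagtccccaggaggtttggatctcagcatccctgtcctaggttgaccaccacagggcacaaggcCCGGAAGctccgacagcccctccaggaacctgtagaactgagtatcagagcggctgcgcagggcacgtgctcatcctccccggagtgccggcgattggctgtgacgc
Psmf1: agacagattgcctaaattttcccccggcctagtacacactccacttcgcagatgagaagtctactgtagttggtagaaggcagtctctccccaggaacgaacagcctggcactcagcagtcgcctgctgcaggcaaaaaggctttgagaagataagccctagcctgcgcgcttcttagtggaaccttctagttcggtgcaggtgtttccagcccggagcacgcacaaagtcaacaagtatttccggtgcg
Psmb5: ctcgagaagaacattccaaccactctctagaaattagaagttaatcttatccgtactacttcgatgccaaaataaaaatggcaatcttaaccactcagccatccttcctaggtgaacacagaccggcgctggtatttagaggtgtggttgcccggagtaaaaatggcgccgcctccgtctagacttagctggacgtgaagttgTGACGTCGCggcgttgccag

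The 250 bases upstream of the start were searched on both strands for 8 motifs in the 41 members matched by symbol in the RefSeq promoter table, beside all 27025 genes of that table, counting a gene once if any of its windows held the motif. CCGGAAG was found in 12 members (29.3%), among them Psme3, Psme4, Psma6, and Psmd11, and in 7.83% of all genes. TGACNNNGC was found in 5 members (12.2%), Psmb5, Psmb6, Psmc6, Psmd9, and Psmd12, and in 11.5% of all genes. The Sp1-type box GGGCGGG was in 39.0% of members and 25.7% of all genes, and CCAAT in 34.1% and 37.5%. The interferon-type motif GAAANNGAA was in 7.32% and 8.18%, the STAT-type motif TTCNNNGAA in 4.88% and 8.13%, and the GATA-type motif GATAA in 19.5% and 25.5%. TGACGTCA, which shares its first 4 letters with TGACNNNGC, was in 0 members and 1.77% of all genes. Psmf1 held none of the first 2 but held GATAA, as did Psmb5, and Psme3 held CCAAT. These matches are not marked in the sequences above. A match is a run of letters and not a measured binding site.

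Genes that work with the proteasome but lie outside its symbols were taken from a list of 22 partners, of which 21 were matched and tested. By edgeR 0 passed an adjusted p of 0.05, 5 (23.8%) had an unadjusted p under 0.05 and a logFC above 0, against 4.51% of all genes, and 0 had one below 0, against 5.49%, with a median logFC of 0.13 (0.085 without WT replicate 1). DESeq2 with all samples called 0 of them, and in 6 (28.6%) each *Trpc1*-/- sample was above each WT sample, against 7.15% of all genes. Txnl1, a thioredoxin bound to the cap, was at 47.2 to 63.6 CPM in WT and 68.2 to 77.9 CPM in *Trpc1*-/- samples, without overlap, with a logFC of 0.35 and an edgeR adjusted p of 0.431.

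Akirin2, which brings proteasomes into the nucleus, was at 25.0, 25.0, 27.0, and 25.9 CPM in WT and 30.1, 28.9, and 29.3 CPM in *Trpc1*-/- samples, again without overlap, with a logFC of 0.20 and an edgeR adjusted p of 0.417. Usp14, a deubiquitinase of the cap, had a logFC of 0.16, and the ubiquitin gene Rps27a had a logFC of 0.30, with adjusted p of 0.496 and 0.490 in edgeR. Of the regulators, Nfe2l1, which raises subunit genes when proteasome capacity falls short, was at 77.7 to 94.6 CPM in WT and 77.5 to 84.0 CPM in *Trpc1*-/- samples, and Nfe2l2 at 61.5 to 85.7 CPM and 77.6 to 88.6 CPM. Both overlapped between the groups, with logFC of -0.11 and 0.086 and edgeR adjusted p of 0.660 and 0.809. Ngly1, which processes Nfe2l1, was at 41.9 to 44.9 CPM in WT and 45.3 to 47.7 CPM in *Trpc1*-/- samples, without overlap and with an edgeR adjusted p of 0.593. Of 8 genes of antigen processing, such as Tap1, B2m, and Nlrc5, 0 had an unadjusted p under 0.05 in either direction, and their median logFC was 0.066.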

How the data were processed

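RNA-Seq was performed on 7 pooled samples of joint tissue, 4 WT and 3 *Trpc1*-/- by their labels. The authors depleted ribosomal RNA, made stranded libraries, and sequenced both ends. Per the submitters' processing notes, bcl2fastq, cutadapt 2.5, HISAT2 2.1.0, and StringTie 2.0.3 were used with GRCm38. The authors deposited estimated counts per gene, derived from StringTie coverage. These were whole numbers, so rounding left them unchanged, and they were not normalized. All 7 sample columns were mapped by the mouse number in their labels and used. How multi-mapped reads were assigned was settled before deposition and can affect near-identical copies. Since alignment and libraries were stranded, reads of genes on the opposite strand are separable in principle. Of the 49 members, 10 overlap another gene on the same strand.

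The filter on low counts required over 1 CPM in 2 or more samples. After TMM normalization, edgeR 4.0.16 in R 4.3.3 gave the quasi-likelihood test on a model of genotype only, with Benjamini-Hochberg adjustment over 16429 genes, and a threshold of 0.05. Standard errors and 95% CIs were derived from the F statistic. DESeq2 1.42.0, limma 3.58.1 (limma-voom), 2 other normalizations, 2 other filters, the replicate block, the mouse number series, and each sample left out in turn were tried as alternatives. The replicate block matched samples by replicate number and left out WT replicate 4, which has no counterpart. The main edgeR fit, and DESeq2 and limma-voom with all samples, were checked beforehand on simulated counts, and the other settings were not. Ratios between members were compared with an exact permutation test over the samples, two-sided. The floor was set at 3 counts, which is 0.0244 to 0.0632 CPM by library. Floors cover counting error only, and the spread between samples enters edgeR as the dispersion (common value, 0.0424). The labels call the replicates biological and each pools mice, so p-values measure the spread between pools.

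Exon lengths and positions were taken from GENCODE M21, and promoters from RefSeq. The members, the lists of partners and markers, and the tests were chosen with earlier results of these data known. Statistics are given for Psmb5 to Psmb10, Psme1 to Psme4, and Psmf1, for up to 10 other members with the smallest unadjusted p under 0.05 (of which there were 0), and for Nfe2l1, Nfe2l2, and up to 6 listed partners at that level (of which there were 5). Other members are described by levels and ranges, with Psma3, Psma6, and Psmg2 named as members of a count and Psmd11 named after its values had been seen. One gene covered by this rule is not reported here. Paaf1 and protein sequences were not used here.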

Additional observations from a re-analysis of the deposited data

Results flagged for a closer look

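Of 55 genes examined in the 4 WT samples, which were the 48 members and 7 partners and regulators, 6 had 1 sample far from the other 3 by Dixon's criterion, in which the gap to the nearest sample is set against the whole range. All 6 were members, and the distant sample was WT replicate 1, on the low side, in each. Its level was 31.5 CPM for Psma4, 22.8 CPM for Psma5, 29.3 CPM for Psma6, 21.0 CPM for Psmb3, 11.4 CPM for Psmb10, and 34.6 CPM for Psmd13, with a gap of 0.833 to 0.914 of the range. These genes belong to the alpha ring, the beta rings, the immunoproteasome, and the lid. Chance flags about 1 in 20 such groups, and the members are not independent of each other, since the same libraries underlie each of them.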

How the results depend on the processing

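Across 17 alternatives, 284 of 306 values of named genes kept their direction and their side of the threshold. The count of called members was 1, Psme3, in DESeq2 with all samples and without WT replicate 1 (where Txnl1 was among the partners called), and 0 in the other alternatives. The count of members higher at an unadjusted p under 0.05 was 2 in the main analysis, against 4.51% of all genes. It was 1 within the 1300s series, against 4.79%, and 8 with the series as a covariate, against 7.30%. Without WT replicate 1 it was 3, against 8.48%. It lay between 1 and 3 when each sample was left out in turn. The count was 1 without a filter on low counts and without WT replicate 2, WT replicate 3, or *Trpc1*-/- replicate 1. For these last settings the share of all genes is not given, so their counts are not read as a change in the members. The median logFC of the members lay between 0.063 (without WT replicate 1) and 0.36. The cause of these changes was not tested.

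The direction turned without WT replicate 1, in edgeR and DESeq2, for Psmb8 (-0.022 and -0.017), Psmb10 (-0.028 and -0.023), Psme2 (-0.029 and -0.024), and Nfe2l2 (-0.015 and -0.010). These were also the lowest edgeR values with a single sample left out, and the highest were 0.29, 0.226, 0.19, and 0.133 in the same order. Psme4, at -0.0027, was at 0.0017 in DESeq2, 0.0018 with RLE factors, 0.011 and 0.026 under the other filters, 0.00068 with the replicate block, 0.0019 in both fits of the mouse number series, and between -0.054 and 0.023 with 1 sample left out. With the replicate block, which left out WT replicate 4, 0 members were higher at an unadjusted p under 0.05, against 1.78% of all genes. In that fit Psme3 had a logFC of 0.29 with an unadjusted p of 0.0548 in edgeR. Same-numbered samples are different mice, their deviations correlated at -0.435, -0.312, and -0.0138, and so the numbers do not pair the samples. The 4 and 3 samples limit the precision, and the members' logFC had a median SE of 0.17 with all samples and 0.077 without WT replicate 1.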

Other observations

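Some rows of the table carry a proteasome-like symbol outside the rule. Psmc3ip, which despite its name encodes a partner of the meiotic recombinases, was at 4.55, 7.09, 6.63, and 6.56 CPM in WT and 7.81, 6.89, and 8.02 CPM in *Trpc1*-/- samples, with WT replicate 1 again the lowest sample and overlap between the groups. The processed pseudogene Psma5-ps was at 1.02 to 1.45 CPM in WT and 1.03 to 1.07 CPM in *Trpc1*-/- samples. Its parent gene Psma5 was at 22.8 CPM in WT replicate 1 and 38.9 to 41.9 CPM in the other WT samples, while the pseudogene was at 94.3% of the mean of the other WT samples in that library. The pseudogenes Psmb6-ps and Psmb6-ps2 had 0 counts in each sample.

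Several partners of the proteasome did not have their lowest level in WT replicate 1. Ecpas, a scaffold that binds the cap, was highest there, at 151 CPM against 116 to 132 CPM in the other WT samples, and Ddi2, the protease that activates Nfe2l1, was at 146 CPM against 111 to 126 CPM. Ubb, by contrast, was lowest in WT replicate 1, at 262 CPM. It was at 404 to 435 CPM in WT replicates 2 to 4 and 421 to 482 CPM in *Trpc1*-/- samples. Among the genes of antigen processing, Nlrc5, which activates MHC class I genes, was at 52.4 CPM in WT replicate 1. It was at 33.0 to 38.1 CPM in the other WT samples, whereas B2m was at 215 CPM and 470 to 529 CPM in the same order. These genes were chosen after their values had been seen, and no difference between them was tested.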
